A study of Mus musculus with 6 samples.

Results

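Genes of the synaptic vesicle and SNARE families were examined in amygdala neurons of mice whose astrocytes had been targeted at Egfr. Members were all genes of the count tables whose symbols belong to the synaptotagmins (Syt), syntaxins (Stx), syntaxin-binding proteins (Stxbp), vesicle-associated membrane proteins (Vamp), synaptosome-associated proteins (Snap), synapsins (Syn), SV2 proteins (Sv2) and complexins (Cplx), chosen by symbol, with earlier results of these data known. They numbered 62 of 35976 genes. By textbook knowledge 29 were classed as neuronal, 19 as ubiquitous and 14 as neither, the last because they are best known from other tissues or because their range is uncertain. The 3 sgEgfr libraries came from male C57BL/6J mice with an adeno-associated virus (AAV) in the amygdala, from which the promoter GfaABC1D, active in astrocytes, expressed Cas9 with a guide against Egfr, the epidermal growth factor receptor (genotype label sgEgfrAstro). The 3 sgRosa libraries came from mice given the same system with a guide against Rosa, a control locus (genotype label sgRosa26). All mice had more than 2 weeks of expression, then 7 days of restraint in a tube, fear conditioning on 1 day and extinction training on 3 days, so neither group is unstressed, and ages are not given in the sources used here. Papain was used to dissociate the amygdala, a magnetic kit served to isolate neurons, and each library was made from 5 ng of RNA. The promoter and the design text place the guides of both groups in astrocytes, while the RNA measured was that of the neuron fraction. The treatment text also names guides in microglia, and the genotype label of the sgRosa libraries gives no cell type.

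Transmitter release rests on the pairing of a vesicle SNARE protein with SNARE proteins of the plasma membrane into a bundle of helices that pulls both membranes together. At the synapse the vesicle partner is synaptobrevin (Vamp2 or Vamp1) and the membrane partners include the syntaxin Stx1a and Snap25. Complexins hold and clamp the assembled bundle, and synaptotagmin-1 (Syt1) senses the calcium that triggers fusion. Synapsins tether vesicles in a reserve pool and SV2 proteins are membrane glycoproteins of the vesicle. Other members of the same families carry out membrane fusion in the Golgi, endosomes, lysosomes and at the surface of cells of every kind. Snap91 (AP180) shares its symbol with the Snap family but is a clathrin assembly protein of vesicle recycling.

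Sequences around the start sites of 4 members are given so that the neuronal and ubiquitous classes can be set side by side at their promoters. RefSeq promoters of GRCm38.p6 (250 bases before to 50 bases after the annotated start) were found for 47 of the 62 members. The promoters of Syn1 and Stx1a are shown for the neuronal class and those of Stxbp3 and Stx4a for the ubiquitous one because Stx1a and Stx4a are a synaptic and a general surface syntaxin, and Syn1 and Stxbp3 are the only ones of these 47 members with a CRE (defined with the motifs below). Each is on the strand of its gene, 5′ to 3′, with motif matches on either strand in capitals.
Syn1 (chrX:20920869-20921168, minus strand): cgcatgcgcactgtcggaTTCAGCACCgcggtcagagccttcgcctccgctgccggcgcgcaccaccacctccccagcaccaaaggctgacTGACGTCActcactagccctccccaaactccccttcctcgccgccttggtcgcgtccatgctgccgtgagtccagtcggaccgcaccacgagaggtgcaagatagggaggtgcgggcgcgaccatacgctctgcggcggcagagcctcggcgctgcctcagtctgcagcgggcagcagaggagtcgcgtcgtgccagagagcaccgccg
Stx1a (chr5:135023232-135023531, plus strand): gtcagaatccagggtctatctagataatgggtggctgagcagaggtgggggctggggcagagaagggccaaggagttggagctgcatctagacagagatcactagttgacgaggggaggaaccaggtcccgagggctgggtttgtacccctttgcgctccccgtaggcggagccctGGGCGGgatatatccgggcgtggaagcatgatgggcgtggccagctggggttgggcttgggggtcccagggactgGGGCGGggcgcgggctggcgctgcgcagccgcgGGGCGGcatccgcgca
Stxbp3 (chr3:108840453-108840752, minus strand): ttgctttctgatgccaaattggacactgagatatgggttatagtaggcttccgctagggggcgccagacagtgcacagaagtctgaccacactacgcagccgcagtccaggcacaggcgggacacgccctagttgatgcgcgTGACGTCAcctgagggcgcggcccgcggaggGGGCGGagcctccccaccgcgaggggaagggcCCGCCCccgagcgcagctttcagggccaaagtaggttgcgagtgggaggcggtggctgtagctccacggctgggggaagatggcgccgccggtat
Stx4a (chr7:127841558-127841857, plus strand): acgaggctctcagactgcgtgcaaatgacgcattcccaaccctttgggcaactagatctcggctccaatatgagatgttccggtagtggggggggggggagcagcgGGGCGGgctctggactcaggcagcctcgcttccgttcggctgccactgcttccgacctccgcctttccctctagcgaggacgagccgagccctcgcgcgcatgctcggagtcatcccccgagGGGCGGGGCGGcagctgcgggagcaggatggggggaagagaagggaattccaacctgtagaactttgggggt
The capitals in the Syn1 promoter mark TTCAGCACC, the left part of the RE1 element that the silencer REST binds, and TGACGTCA, the cyclic AMP response element (CRE). The Stxbp3 promoter holds 1 CRE and 2 GC boxes (GGGCGG, 1 of them as its complement CCGCCC). Stx1a and Stx4a each hold 3 GC boxes, and in Stx4a 2 of these share a base. Letters were searched on both strands, and the GC box, the CRE, the RE1 part and the TATA box TATAAA do not contain one another. A GC box was in 66.7% of 27 neuronal promoters (19 genes) and in 63.6% of 22 ubiquitous ones (17 genes), against 35.7% of all 32851 promoters. The 2 classes were thus close to each other on this motif. Where a gene has several promoters, each was counted. The CRE was in 1 promoter of each class and in 1.79% of all promoters. The RE1 part was in the Syn1 promoter alone among the members and in 0.371% of all promoters. The TATA box was in 2 promoters of each class and in 13.6% of all promoters. Both neuronal ones belong to Sv2b, and the ubiquitous ones to Stx2 and Stx3. The median GC content was 65.0% for neuronal, 60.0% for ubiquitous and 52.7% for all promoters. A match of letters is a description, and says nothing of whether a factor is bound there.

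Total counts ranged from 2520426 to 4849404 in the sgEgfr libraries and from 2348897 to 10152812 in the sgRosa libraries. Values are given as CPM, counts relative to the TMM-scaled library total. In a single library 3 counts stood for 0.270 to 1.25 CPM, which is taken as the floor, and such floors cover counting error only, since the reads carry no molecular identifiers. The members took 1.10%, 0.848% and 1.33% of the counts in sgEgfr libraries 1, 2 and 3, against 0.517%, 0.638% and 1.38% in sgRosa libraries 1, 2 and 3. Egfr itself had 6, 18 and 6 counts in the sgEgfr libraries and 1, 26 and 23 counts in the sgRosa libraries, too few in a neuron fraction to check the targeting in astrocytes. The fraction was not pure, as summed CPM of 9 oligodendrocyte markers was 39190, 57457 and 22504 in sgEgfr libraries and 71500, 65051 and 24368 in sgRosa libraries, none of the markers being at 0. The 9 astrocyte markers, from the cell type that was targeted, summed to 1154, 1573 and 524 CPM in sgEgfr libraries and 913, 1375 and 834 CPM in sgRosa libraries. Choroid plexus RNA was high in sgEgfr library 1 (8597 summed CPM of 8 markers) and sgRosa library 3 (11565), against 512 to 1411 in the other sgEgfr libraries and 1724 to 2449 in the other sgRosa libraries. These 2 libraries stand apart from the rest, and class medians are given with and without them.

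Per length of transcript, the complexin Cplx2 was the most abundant member at 711 CPM per kb of exons in sgEgfr libraries (mean, n = 3) and 418 CPM per kb in sgRosa libraries. Syt11, a synaptotagmin found in neurons and glia, followed with 171 CPM per kb in sgEgfr and 228 CPM per kb in sgRosa libraries, and Snap25 with 192 and 124 CPM per kb in sgEgfr and sgRosa libraries. Syt4, an activity-regulated synaptotagmin of secretory organelles, had 116 CPM per kb in sgEgfr libraries and 73.7 CPM per kb in sgRosa libraries. The core fusion genes Vamp2 and Stx1a lay near each other on this scale over all 6 libraries, at 62.9 CPM per kb for Vamp2 and 62.2 CPM per kb for Stx1a, with Syn2 at 58.0 and Sv2a at 33.6 CPM per kb as the highest of the synapsins and SV2 proteins. Among the ubiquitous members the highest were Snap47 with 64.3 and Vamp4 with 57.5 CPM per kb, followed by Stx12, Stx4a, Stx7 and Stxbp3 at between 24.0 and 27.1 CPM per kb. Vamp7 has no length in the annotation used and is given only as CPM.

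**Figure D1:**
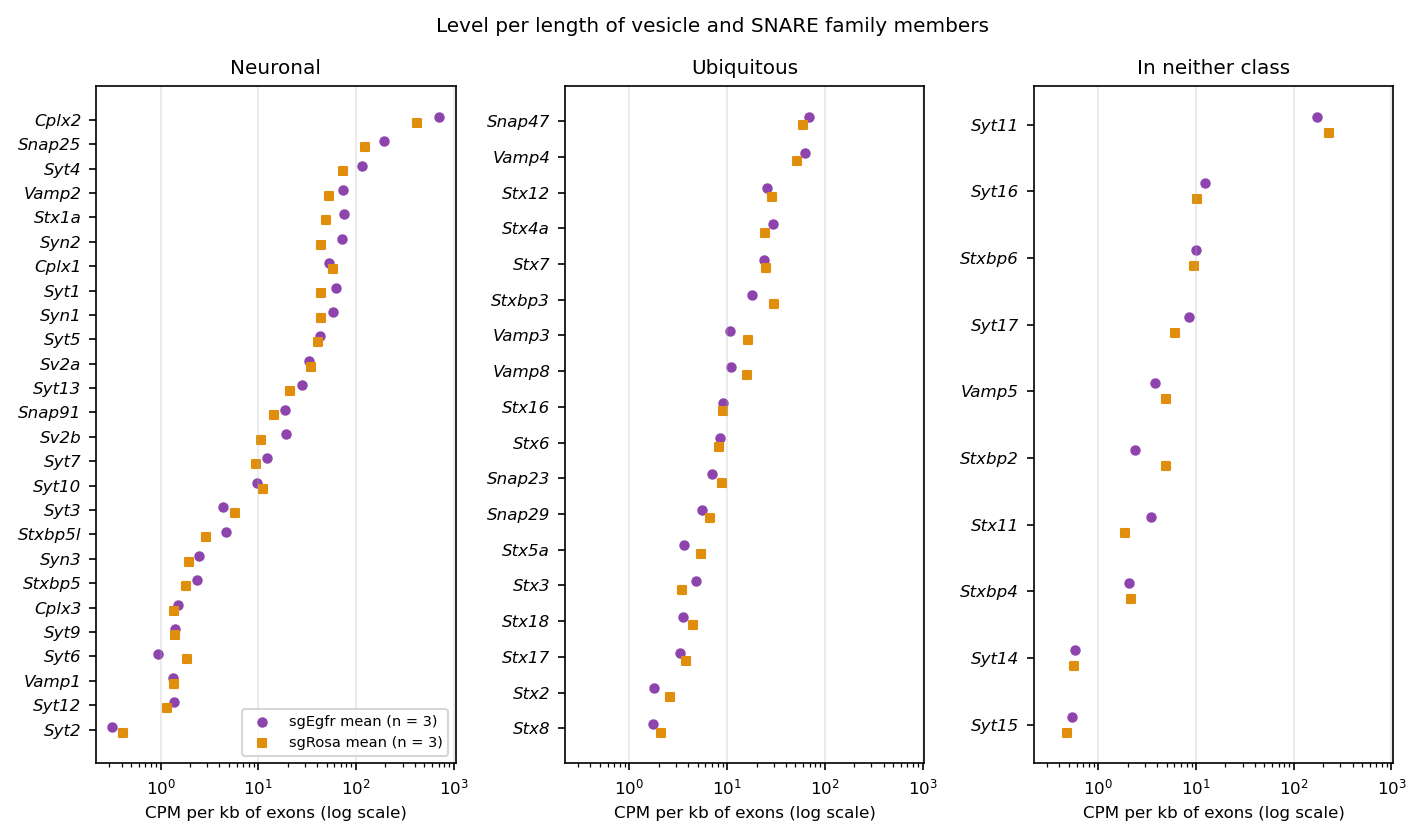
Mean level of the members as CPM per kb of exons on a log axis, with sgEgfr means as circles and sgRosa means as squares (n = 3 libraries each), in the neuronal, ubiquitous and remaining members. Cplx2 leads at 711 CPM per kb in sgEgfr and 418 CPM per kb in sgRosa libraries, and most neuronal members have the circle to the right of the square.

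sgEgfr libraries were compared with sgRosa libraries for every gene by edgeR's quasi-likelihood test, with p-values adjusted by Benjamini-Hochberg over the 13159 genes that had enough counts to be tested and a threshold of 0.05. Of the 62 members 57 were tested, and none passed; the smallest adjusted p of a member was 0.781, and none of all genes passed either (0%). At an unadjusted p under 0.05, 1 of 57 members was called, against 6.16% of all genes tested; it was lower in sgEgfr libraries, where 2.93% of all genes were, and no member was higher, where 3.23% of all genes were. DESeq2, which called 33 genes (0.251%), called no member, with a smallest member adjusted p of 0.386 and 1 member at an unadjusted p under 0.05 (5.98% of all genes). limma-voom with quality weights called no gene, with a smallest member adjusted p of 0.250 and 22 members at an unadjusted p under 0.05, where 15% of all genes were at that level. No member is therefore reported as changed, and all fold changes below are given as measured values with their intervals. A log2 fold change is sgEgfr over sgRosa, so a positive one means a higher value in sgEgfr libraries, and each comes with its standard error (SE) and 95% interval. Values given after these as without a library are the lowest and the highest when each library was left out in turn.

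The medians of the neuronal and ubiquitous classes lay on opposite sides of 0. In bulk libraries such as these, fewer cells of a type and less RNA per cell cannot be told apart. Of 28 tested neuronal members 20 had a positive log2 fold change, with a median of 0.36 and a range of -0.92 to 0.85. Of 19 tested ubiquitous members 5 had a positive one, with a median of -0.23 and a range of -0.71 to 0.45, while 46.3% of all genes tested were positive, with a median of -0.038. The medians of the classes thus differed by 0.59, a difference that was not tested, as the classes were set with results of these data known. Single libraries carried much of it: the neuronal median was 0.88 without sgRosa library 3, 0.15 without sgRosa library 1, 0.20 without sgRosa library 2, 0.57 without sgEgfr library 2 and 0.23 without sgEgfr library 3, and the ubiquitous median was -0.043 without sgRosa library 1. Without the 2 libraries of high choroid plexus RNA the neuronal median was 0.94 and the ubiquitous one -0.31.

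**Figure D2:**
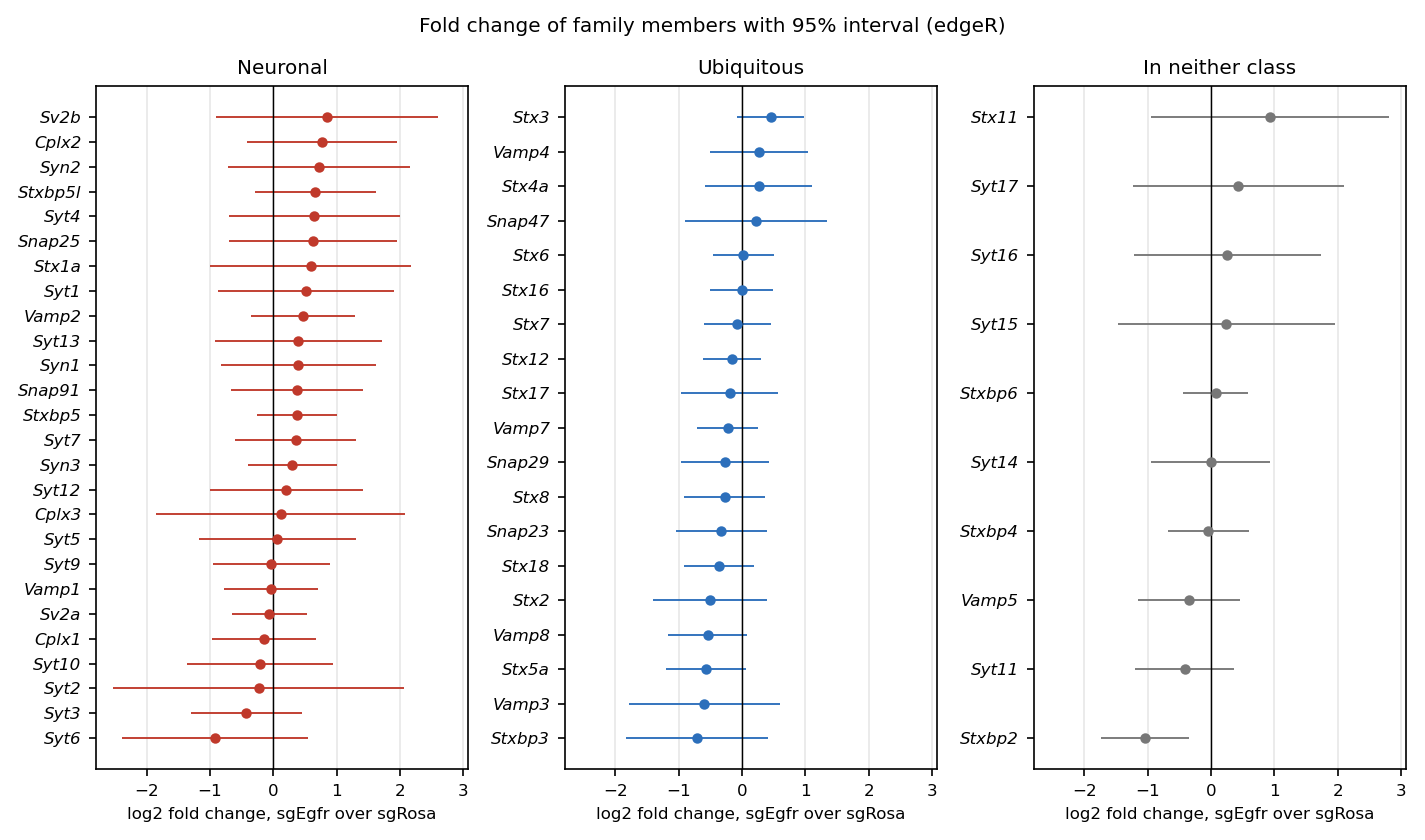
Log2 fold change of the members, sgEgfr over sgRosa, with 95% intervals, in the neuronal, ubiquitous and remaining classes. All intervals drawn cross 0 but that of Stxbp2, at -1.04, and the neuronal points lie mostly to the right of 0 and the ubiquitous points mostly to the left.

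The class means were then taken library by library. The mean log2 CPM of the neuronal members was 6.33, 5.76 and 6.48 in sgEgfr libraries 1, 2 and 3, against 5.28, 5.56 and 6.52 in sgRosa libraries 1, 2 and 3. The values were high in sgEgfr libraries 1 and 3 and sgRosa library 3 and low in sgRosa libraries 1 and 2, with sgEgfr library 2 between, and the groups overlap. Averages were 6.19 ± 0.381 in sgEgfr and 5.79 ± 0.649 in sgRosa libraries (SD, n = 3 each). Of the 28 neuronal members 15 had their highest CPM in sgRosa library 3 and 9 in sgEgfr library 3, and 16 had their lowest in sgRosa library 1 and 7 in sgRosa library 2. The ubiquitous members had mean log2 CPM values of 5.40, 5.38 and 5.25 in sgEgfr libraries and 5.66, 5.44 and 5.40 in sgRosa libraries, a narrower span in which sgRosa library 1 was highest for 10 of 19 members. The highest sgEgfr mean (5.398, library 1) was just below the lowest sgRosa mean (5.401, library 3). The groups thus do not overlap but nearly meet, and this difference was not tested.

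A list of 17 pan-neuronal genes that holds no family member, among them the nuclear protein gene Rbfox3 and the neurofilament genes, followed a similar order, in which library 3 of both groups was highest and sgRosa libraries 1 and 2 were lowest, as for the neuronal members. Its mean log2 CPM was 7.00, 6.56 and 7.16 in sgEgfr libraries and 6.10, 6.09 and 7.15 in sgRosa libraries, with 16 of 17 genes positive, a median log2 fold change of 0.36 and no gene at 0 in any library. Set against that list, the neuronal members were at -0.67, -0.80 and -0.68 in sgEgfr libraries and at -0.82, -0.53 and -0.63 in sgRosa libraries (difference of mean log2 CPM). These differences averaged -0.72 ± 0.0732 in sgEgfr and -0.66 ± 0.149 in sgRosa libraries (SD, n = 3 each), within the spread of the sgRosa libraries. With the mean of the pan-neuronal list added to the edgeR fit as a covariate, 12 of 28 neuronal members were positive with a median of -0.077, the ubiquitous median was -0.12 and the median of all genes -0.049. Summed oligodendrocyte marker CPM ran the other way in part, as sgRosa libraries 1 and 2 had the most and sgEgfr library 3 and sgRosa library 3 the least, with 9 of 9 markers negative in log2 fold change. The 8 endothelial markers summed to 1364, 1168 and 1382 CPM in sgEgfr libraries and 2642, 1116 and 663 CPM in sgRosa libraries, none at 0. The part of these cell types in the class medians was not tested.

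**Figure D3:**
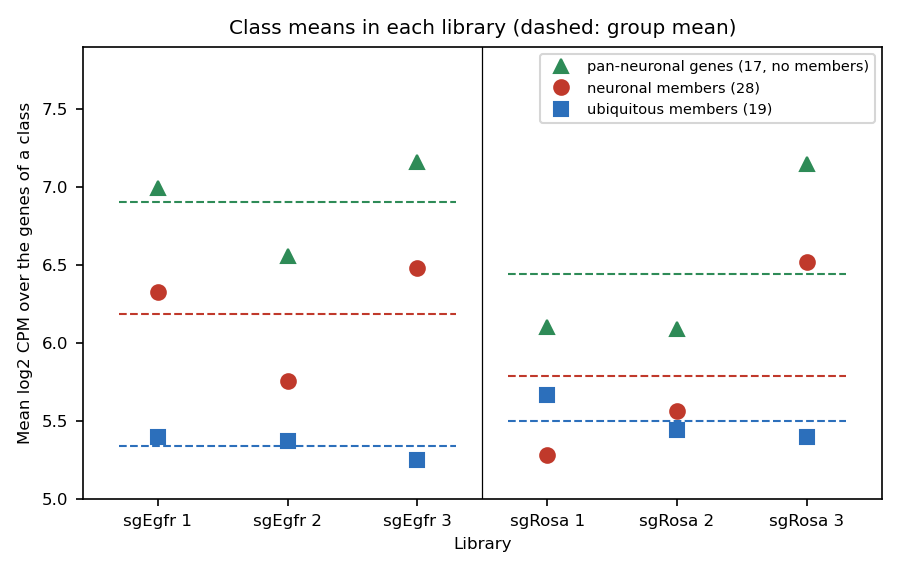
Mean log2 CPM over the genes of a class in each of the 6 libraries, for 17 pan-neuronal genes (triangles), 28 neuronal members (circles) and 19 ubiquitous members (squares), with group means dashed. The neuronal members move with the pan-neuronal genes from library to library, from 5.28 in sgRosa library 1 to 6.52 in sgRosa library 3, while the ubiquitous members stay between 5.25 and 5.66.

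The core SNARE genes of the synapse had wide intervals around positive values. Snap25, the membrane SNARE that gives helices from both of its ends (chromosome 2, 136713453 to 136782428 of GRCm38, plus strand), had 1316, 896 and 1693 CPM in sgEgfr libraries 1, 2 and 3, against 478, 408 and 1640.4 CPM in sgRosa libraries 1, 2 and 3. Its level in sgRosa library 3 was close to the highest sgEgfr one, so the groups overlap, and the log2 fold change was 0.63 (SE 0.57, 95% interval -0.70 to 1.96), or 0.35 without sgRosa library 2 and 1.55 without sgRosa library 3, with an adjusted p of 0.846 in edgeR's quasi-likelihood test. Vamp2 (chromosome 11, 69088490 to 69092384, plus strand), the synaptobrevin of most forebrain synapses, had 313, 215 and 307 CPM in sgEgfr libraries and 156, 142 and 305 CPM in sgRosa libraries. The spread was narrower than that of Snap25, with sgRosa libraries 1 and 2 below all others, and the log2 fold change was 0.47 (SE 0.36, 95% interval -0.35 to 1.30), or 0.32 without sgRosa library 2 and 0.90 without sgRosa library 3. Stx1a, a syntaxin of the presynaptic membrane (chromosome 5, 135023482 to 135051100, plus strand), had 235, 128 and 237 CPM in sgEgfr libraries and 44.7, 58.9 and 292 CPM in sgRosa libraries. The highest and the lowest value were both in sgRosa libraries, and the log2 fold change was 0.59 (SE 0.68, 95% interval -0.997 to 2.18), or 0.21 without sgRosa library 1 and 1.95 without sgRosa library 3. Vamp1, the synaptobrevin of brainstem and spinal synapses, was low at 8.77 to 19.4 CPM in all libraries, with a log2 fold change of -0.035.

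Among genes that restrain or clamp the bundle, sgRosa libraries 1 and 2 were mostly the lowest. The tomosyn genes Stxbp5 and Stxbp5l encode proteins that occupy syntaxin and Snap25 and so restrain release. Stxbp5l had 45.4, 25.2 and 49.1 CPM in sgEgfr libraries and 16.3, 18.4 and 40.0 CPM in sgRosa libraries, with a log2 fold change of 0.66 (SE 0.41, 95% interval -0.29 to 1.61), or 0.46 without sgRosa library 1 and 1.20 without sgRosa library 3, with an unadjusted p of 0.145 in edgeR's test. Stxbp5 had 41.6, 32.6 and 42.5 CPM in sgEgfr libraries and 23.3, 25.9 and 40.5 CPM in sgRosa libraries, with a log2 fold change of 0.37 (SE 0.27, 95% interval -0.26 to 1.00), or 0.24 without sgRosa library 1 and 0.66 without sgRosa library 3. In both tomosyn genes sgRosa libraries 1 and 2 were the lowest of the 6 and sgRosa library 3 lay within the sgEgfr range. Among the complexins, Cplx2 (chromosome 13, 54371349 to 54383917, plus strand) had 3786, 2454 and 4271 CPM in sgEgfr libraries and 1003, 1690.4 and 3479 CPM in sgRosa libraries. Both sgRosa library 1 and sgRosa library 2 were below the rest, sgRosa library 3 lay within the sgEgfr range, and the log2 fold change was 0.77 (SE 0.51, 95% interval -0.42 to 1.95), or 0.47 without sgRosa library 1 and 1.38 without sgRosa library 3, with an adjusted p of 0.800 in edgeR's test. Cplx1, the complexin more typical of inhibitory and brainstem neurons, had 144, 75.9 and 128 CPM in sgEgfr libraries and 102, 96.5 and 185 CPM in sgRosa libraries, with a log2 fold change of -0.14 (SE 0.35, 95% interval -0.96 to 0.68). Cplx3, best known from the retina, was at 10.9, 0.893 and 1.56 CPM in sgEgfr libraries and 4.50, 2.09 and 5.58 CPM in sgRosa libraries, near the floor in several.

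**Figure D4:**
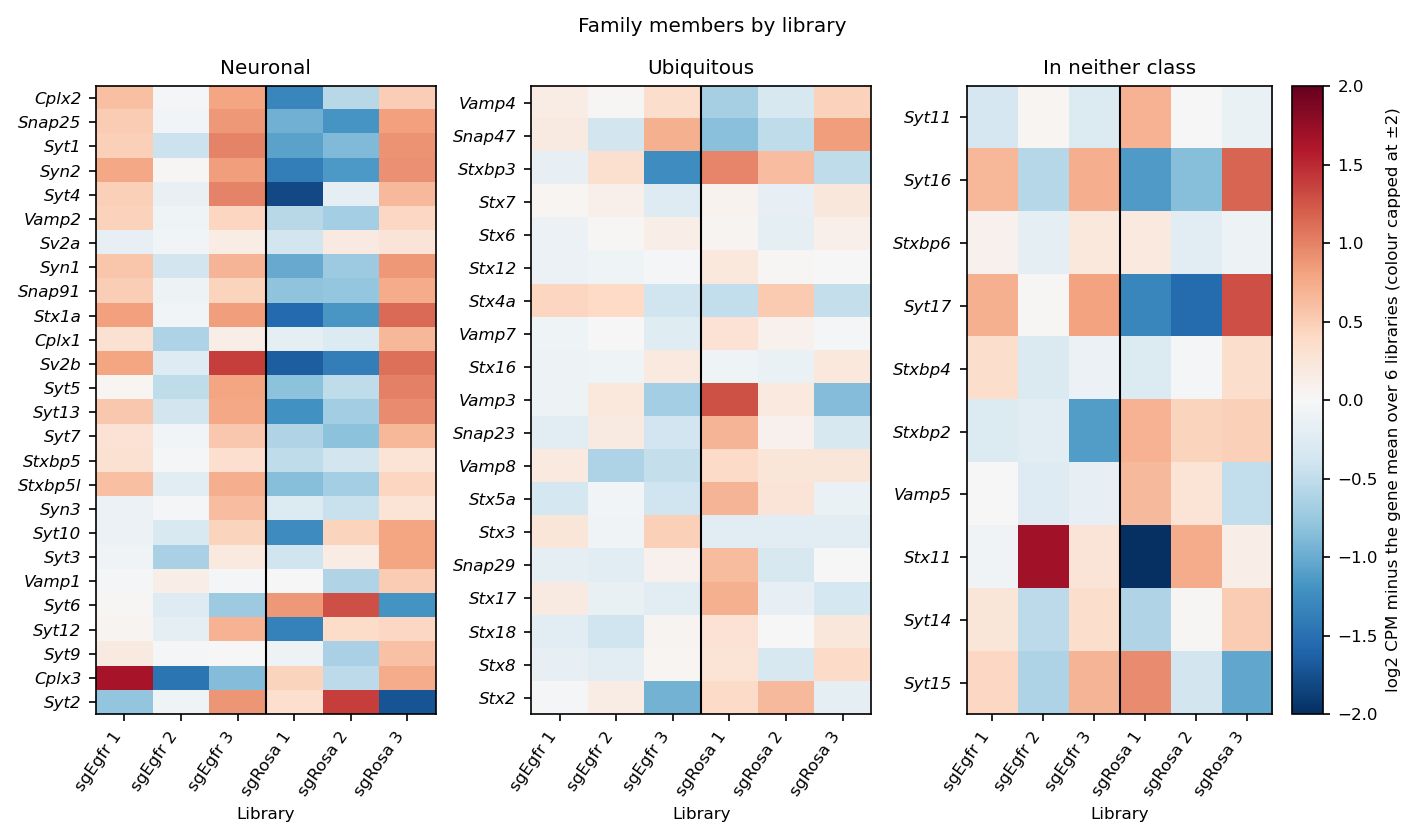
Log2 CPM of the members, each minus its mean over the 6 libraries (colour, capped at plus or minus 2), with libraries as columns, sgEgfr left of sgRosa, and members ordered by level within each class. Most neuronal members are low in sgRosa libraries 1 and 2 and high in sgRosa library 3 and sgEgfr libraries 1 and 3, while Syt6 runs the other way, from 17.1 CPM in sgRosa library 2 to 2.7004 CPM in sgRosa library 3.

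Of 16 tested synaptotagmins 9 had a positive log2 fold change, with a median of 0.14. Syt1, the calcium sensor of fast release in the forebrain (chromosome 10, 108497650 to 109010982, minus strand), had 529.5, 282 and 759.8 CPM in sgEgfr libraries and 182, 205 and 712 CPM in sgRosa libraries. Library 3 of both groups was highest and the groups overlap; the log2 fold change was 0.51 (SE 0.60, 95% interval -0.87 to 1.90), or 0.20 without sgEgfr library 3 and 1.44 without sgRosa library 3. Syt4 had 440.2, 283 and 629 CPM in sgEgfr libraries and 90.0, 278 and 493 CPM in sgRosa libraries. A single library, sgRosa 1, was far below the rest, and the log2 fold change was 0.65 (SE 0.58, 95% interval -0.70 to 2.00), or 0.25 without sgRosa library 1 and 1.30 without sgRosa library 3. Syt11, which binds no calcium (chromosome 3, 88744700 to 88775164, minus strand), was at 799, 1036 and 838 CPM in sgEgfr libraries and 1641, 1009 and 918 CPM in sgRosa libraries. Here sgRosa library 1 was far above the rest, in contrast to Syt4, and the log2 fold change was -0.42 (SE 0.34, 95% interval -1.20 to 0.37), or -0.093 without it and -0.58 without sgRosa library 3. Syt6 and Syt3 had the most negative values of the neuronal class, at -0.92 and -0.43. Syt6 was at 6.82, 5.58 and 3.90 CPM in sgEgfr libraries and 12.7, 17.1 and 2.7004 CPM in sgRosa libraries, so that sgRosa library 3 was the lowest and sgRosa libraries 1 and 2 the highest. The other neuronal synaptotagmins Syt5, Syt7, Syt9, Syt10, Syt12 and Syt13 had log2 fold changes from -0.20 to 0.40, and Syt2, the fast sensor of brainstem synapses, was at 0.360 to 6.27 CPM in all libraries.

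Synapsins and SV2 genes encode proteins of the vesicle itself. All 3 synapsins were positive, with a median log2 fold change of 0.39. Syn2 (chromosome 6, 115134902 to 115282006, plus strand) had 577, 343 and 606 CPM in sgEgfr libraries and 129, 152 and 639 CPM in sgRosa libraries. Its values in sgRosa libraries 1 and 2 were below all sgEgfr values and that in sgRosa library 3 above them, and the log2 fold change was 0.73 (SE 0.62, 95% interval -0.71 to 2.16), or 0.40 without sgRosa library 1 and 1.86 without sgRosa library 3. Syn1 had 219, 116 and 240.0 CPM in sgEgfr libraries and 74.2, 90.2 and 272 CPM in sgRosa libraries, the same order of libraries, with a log2 fold change of 0.39 (SE 0.53, 95% interval -0.83 to 1.62), or 0.11 without sgRosa library 1 and 1.22 without sgRosa library 3. Sv2a, the binding site of the antiepileptic levetiracetam, had 137, 149 and 172 CPM in sgEgfr libraries and 119, 174 and 185 CPM in sgRosa libraries. It varied little between libraries, with a log2 fold change of -0.063 (SE 0.26, 95% interval -0.66 to 0.53). Sv2b had 163, 78.8 and 244 CPM in sgEgfr libraries and 29.8, 35.9 and 202 CPM in sgRosa libraries, a wider span than that of Sv2a, with sgRosa libraries 1 and 2 far below the rest and a log2 fold change of 0.85 (SE 0.75, 95% interval -0.90 to 2.60). Sv2c was too low to test, with 0 to 2 counts in every library.

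Ubiquitous members had negative log2 fold changes in 14 of 19 cases, none past a threshold. Stxbp3 (Munc18c), which serves fusion at the surface of many cells (chromosome 3, 108793176 to 108840526, minus strand), had 101, 142 and 47.9 CPM in sgEgfr libraries and 224, 175 and 80.0 CPM in sgRosa libraries. Values spread widely in both groups, which overlap, and the log2 fold change was -0.71 (SE 0.48, 95% interval -1.83 to 0.40), or -1.09 without sgEgfr library 2 and -0.37 without sgRosa library 1. The gene Stxbp3-ps, annotated as a processed pseudogene, shares 503 runs of 50 bases with Stxbp3, so reads of either may be split between them. Vamp3 (cellubrevin), of recycling endosomes, had 32.2, 40.2 and 21.4 CPM in sgEgfr libraries and 84.6, 39.7 and 18.8 CPM in sgRosa libraries. A single library, sgRosa 1, held the high value, and the log2 fold change of -0.60 (SE 0.51, 95% interval -1.79 to 0.59) became 0.14 without it and -0.999 without sgRosa library 3. Snap23, the widely expressed relative of Snap25, had 27.7, 37.0 and 24.9 CPM in sgEgfr libraries and 52.3, 34.7 and 26.1 CPM in sgRosa libraries. Its log2 fold change was -0.33 (SE 0.31, 95% interval -1.04 to 0.39), or 0.0053 without sgRosa library 1, which was again the highest, and -0.55 without sgRosa library 3. sgRosa library 1 also had the highest summed oligodendrocyte and endothelial marker CPM, and their part in these values was not tested.

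Of the 5 positive ubiquitous members, Vamp4 and Snap47 had the highest CPM. Snap47, which is also abundant in brain, had 176, 120.5 and 254 CPM in sgEgfr libraries and 86.6, 109 and 276 CPM in sgRosa libraries, with a log2 fold change of 0.22 (SE 0.48, 95% interval -0.90 to 1.34), or -0.043 without sgEgfr library 3 and 0.91 without sgRosa library 3. Vamp4, of the Golgi and endosomes, had 281, 257 and 324 CPM in sgEgfr libraries and 161, 203 and 350.1 CPM in sgRosa libraries, with a log2 fold change of 0.27 (SE 0.33, 95% interval -0.50 to 1.04), or 0.079 without sgRosa library 1 and 0.66 without sgRosa library 3. Both had the library order of Syn1 and Syn2, sgRosa libraries 1 and 2 being the lowest of the 6 and sgRosa library 3 the highest. Stx4a, the surface syntaxin of many cells, had 81.9, 80.6 and 46.0 CPM in sgEgfr libraries and 43.3, 87.7 and 43.7 CPM in sgRosa libraries, with its high values in sgRosa library 2 and sgEgfr libraries 1 and 2 and a log2 fold change of 0.26 (SE 0.36, 95% interval -0.58 to 1.10), or 0.093 without sgRosa library 3 and 0.70 without sgRosa library 2. The endosomal syntaxins Stx6 and Stx7 and the lysosomal Vamp7 varied little between libraries. Stx6 ranged from 81.5 to 96.2 CPM in sgEgfr and from 77.3 to 94.4 CPM in sgRosa libraries, Stx7 from 91.2 to 118 CPM in sgEgfr and from 97.3 to 127 CPM in sgRosa libraries, and Vamp7 from 42.9 to 50.7 CPM in sgEgfr and from 49.8 to 62.4 CPM in sgRosa libraries. Their log2 fold changes were 0.020 for Stx6, -0.079 for Stx7 and -0.23 for Vamp7, the last with an interval of -0.71 to 0.25.

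Only 1 member had an unadjusted p under 0.05. Stxbp2 (chromosome 8, 3630955 to 3643644, plus strand) encodes Munc18-2, which serves granule release in blood and epithelial cells, and it was in neither class. It had 11.5, 11.8 and 6.23 CPM in sgEgfr libraries and 22.8, 19.2 and 19.5 CPM in sgRosa libraries. Every sgEgfr value was below every sgRosa value, and the log2 fold change was -1.04 (SE 0.30, 95% interval -1.74 to -0.34), with an unadjusted p of 0.00913 and an adjusted p of 0.781 in edgeR's quasi-likelihood test and an adjusted p of 0.386 in DESeq2. Non-overlapping groups of this kind were seen in 4 of 57 members, against 13.4% of all genes tested: 1 higher in sgEgfr (Stx3), where 5.8% of all genes were, and 3 lower (Stxbp2, Vamp8 and Stx12), where 7.6% were. Members were thus not above the background on this count. Vamp8, of late endosomes and exocrine granules (chromosome 6, 72385223 to 72390703, minus strand), had 34.3, 19.4 and 21.4 CPM in sgEgfr libraries and 39.1, 35.5 and 35.5 CPM in sgRosa libraries, with a log2 fold change of -0.55 (SE 0.27, 95% interval -1.17 to 0.073) and an unadjusted p of 0.0761 in edgeR's test. Stx12, an endosomal syntaxin, had 78.9, 81.0 and 84.6 CPM in sgEgfr libraries and 99.3, 87.7 and 86.1 CPM in sgRosa libraries, which do not overlap but nearly meet at sgEgfr library 3 and sgRosa library 3, with a log2 fold change of -0.16 (SE 0.20, 95% interval -0.62 to 0.30). Stx3, an apical and photoreceptor syntaxin also found in dendrites, had 27.5, 22.1 and 32.3 CPM in sgEgfr libraries and 19.97, 20.05 and 19.8 CPM in sgRosa libraries. Its sgRosa values were nearly the same in all 3 libraries, and the log2 fold change was 0.45 (SE 0.23, 95% interval -0.080 to 0.98) with an unadjusted p of 0.0855 in edgeR's test. Stx5a, of the Golgi, had 19.8, 24.5 and 19.1 CPM in sgEgfr libraries and 41.1, 30.5 and 23.1 CPM in sgRosa libraries, with sgEgfr library 2 above sgRosa library 3 and a log2 fold change of -0.57 (SE 0.27, 95% interval -1.20 to 0.060), or -0.76 without sgRosa library 3 and -0.31 without sgRosa library 1. Stx18, of the endoplasmic reticulum, had 15.8, 13.8 and 19.1 CPM in sgEgfr libraries and 22.5, 18.4 and 21.5 CPM in sgRosa libraries, with a log2 fold change of -0.36 (SE 0.24, 95% interval -0.92 to 0.19).

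The 9 other tested members in neither class had log2 fold changes between -0.42 (Syt11) and 0.93 (Stx11). Stx11, best known from immune cells, had 7.68, 26.6 and 9.74 CPM in sgEgfr libraries and 0.844, 13.8 and 8.82 CPM in sgRosa libraries, and was highest in sgEgfr library 2. Summed CPM of 9 microglial markers was likewise highest there, at 354, 523 and 37.8 in sgEgfr libraries and 70.3, 133 and 181 in sgRosa libraries, with no marker at 0. The other libraries were not in the same order, as sgEgfr library 1 was second for these markers but low for Stx11. Summed astrocyte marker CPM was also highest in sgEgfr library 2, at 1573. The part of either cell type in Stx11 was not tested. Syt16 and Syt17 had the neuronal order of libraries: Syt17 was at 49.3, 30.3 and 52.2 CPM in sgEgfr libraries and 11.8, 10.02 and 73.8 CPM in sgRosa libraries. Stxbp6 (amisyn) varied little, from 45.5 to 59.6 CPM in sgEgfr and from 44.7 to 59.1 CPM in sgRosa libraries. The 5 members too low to test were Sv2c, Cplx4 (1 count in all), Stx19 (0 to 7 counts in sgEgfr and 3 to 13 in sgRosa libraries), Stxbp3-ps (2 to 5 counts in sgEgfr and 5 to 14 in sgRosa libraries) and Syt8, which had 0 counts in every library.

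Ratios of a neuronal member to its ubiquitous relative compare genes within one library. The ratio of Vamp2 to Vamp3 CPM was 9.73, 5.36 and 14.3 in sgEgfr libraries and 1.84, 3.58 and 16.2 in sgRosa libraries. For Snap25 over Snap23 it was 47.5, 24.2 and 67.9 in sgEgfr libraries and 9.13, 11.8 and 62.8 in sgRosa libraries. In both pairs sgRosa libraries 1 and 2 were below every sgEgfr library, and sgRosa library 3 was near the highest sgEgfr library. On the log2 scale the group means differed by 0.94 for the Vamp pair and 1.18 for the Snap pair, less than the SD of the sgRosa libraries in each case (1.61 for the Vamp pair and 1.51 for the Snap pair, n = 3). The longest run of bases shared by the transcripts of a pair was 17 for the Vamp pair and 25 for the Snap pair.

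**Figure D5:**
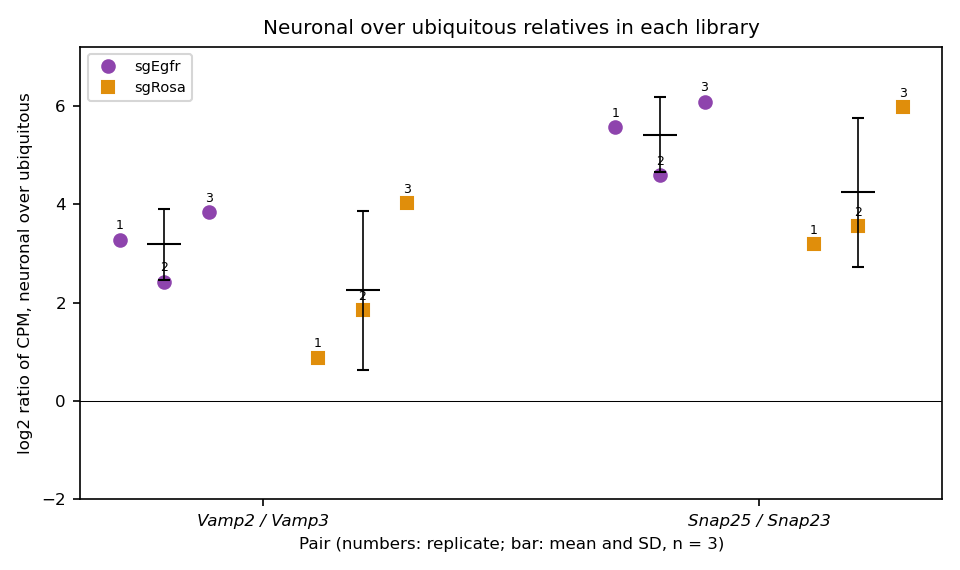
Log2 ratio of the CPM of a neuronal member to that of its ubiquitous relative in each library (points numbered by replicate, sgEgfr circles left of sgRosa squares), with the mean and SD of each group (n = 3). In both pairs sgRosa libraries 1 and 2 lie below all sgEgfr libraries and sgRosa library 3 among or above them.

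The makeup of each family was described as the share of each member in the family's summed CPM per kb (the Vamp family without Vamp7). Cplx2 made up 91.7%, 93.4% and 93.6% of the complexins in sgEgfr libraries and 80.9%, 88.5% and 89.1% in sgRosa libraries. Cplx1 made up most of the rest, 6.89 ± 0.828% in sgEgfr and 13.5 ± 4.33% in sgRosa libraries (SD, n = 3 each). Snap25 held 66.1%, 64.3% and 65.9% of the members with a Snap symbol, Snap91 included, in sgEgfr libraries and 52.8%, 49.0% and 63.0% in sgRosa libraries. Syn2 held 54.6%, 56.7% and 53.1% of the synapsins in sgEgfr libraries, against 43.1%, 42.7% and 51.6% in sgRosa libraries, while Syn1 held 43.3 ± 2.13% in sgEgfr and 51.3 ± 3.88% in sgRosa libraries. For Cplx2, Snap25 and Syn2 the shares of the 2 groups do not overlap, though the gap to sgRosa library 3 was small. The shares of Cplx1, Syn1, Stx8, Stxbp2, Stxbp5 and Stxbp5l do not overlap either. For Stxbp2 the nearest values were 2.96% in sgEgfr library 2 and 3.05% in sgRosa library 3. For Stxbp5l they were 3.08% and 3.04% in the same libraries, so these gaps were small too. Within a family the shares add up to the whole, so lower shares of Cplx1 and Syn1 mirror higher ones of Cplx2 and Syn2. No test was run on shares, and shares without overlap were not counted over all members. On CPM, 13.4% of all genes tested did not overlap, but CPM is another measure, so this gives no background for the shares. Vamp2 held 44.6 ± 3.67% of its family in sgEgfr and 35.6 ± 6.93% in sgRosa libraries, and these shares overlap. Exons of 14 members overlap those of another gene on the opposite strand, the longest being 1733 bases between Syn3 and Timp3, a metalloproteinase inhibitor gene. Syt12 shares 950 bases with A930001C03Rik, and Stx18 shares 908 with Gm42858 and 574 with Nsg1. Syt4 shares 566 with Gm26658, Syt6 shares 505 with Atg4a-ps, Snap47 shares 307 with Jmjd4 and Syn2 shares 90 with Timp4. The values of such members hold as far as the counting kept strands apart. Whether strand was used is not given in the sources used here.

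Genes of the same process outside the families were taken from lists chosen with results of these data known. Of 31 release genes (active zone scaffolds, Rab3, Munc13 and other vesicle proteins) 26 were positive, against 46.3% of all genes tested, with a median log2 fold change of 0.39, and none passed at an adjusted p. At an unadjusted p under 0.05 stood 1 of them, Syngr1 (synaptogyrin-1), with 173, 88.6 and 163 CPM in sgEgfr libraries and 43.3, 76.4 and 105 CPM in sgRosa libraries and a log2 fold change of 0.91 (SE 0.39, 95% interval 0.0078 to 1.82). Over all genes 6.16% were at that level, and 3.23% were and were higher in sgEgfr libraries, so the list's count was not above the background. Erc1, an active zone scaffold, did not overlap between the groups, with 51.6, 43.5 and 64.7 CPM in sgEgfr libraries and 36.8, 35.9 and 39.2 CPM in sgRosa libraries and a log2 fold change of 0.51 (SE 0.22, 95% interval -0.0084 to 1.03). Of the 31 release genes only this 1 did not overlap, where 5.8% of all genes tested were higher without overlap. Unc13b (Munc13-2), a priming factor, had 18.98, 23.2 and 39.0 CPM in sgEgfr libraries and 17.7, 14.2 and 19.4 CPM in sgRosa libraries, with a log2 fold change of 0.65 (SE 0.32, 95% interval -0.088 to 1.38). Vesicle recycling and filling genes were positive in 12 of 15, with a median of 0.35. Of these Slc18a2, the vesicular monoamine transporter VMAT2, had 79.3, 75.0 and 92.0 CPM in sgEgfr libraries and 28.1, 48.9 and 28.3 CPM in sgRosa libraries. Every sgEgfr value was above every sgRosa value, sgRosa library 3 included, with a log2 fold change of 1.23 (SE 0.28, 95% interval 0.58 to 1.88), an unadjusted p of 0.00241 and an adjusted p of 0.781 in edgeR's quasi-likelihood test, while DESeq2 gave an adjusted p of 0.0455. limma-voom called no gene at an adjusted p. Slc18a2 was the only 1 of the 15 at an unadjusted p under 0.05 in edgeR's test, where 3.23% of all genes were and were higher. It was also the only 1 without overlap, where 5.8% of all genes were higher without overlap. Synj1 (synaptojanin-1), which uncoats vesicles, had 271, 176 and 302 CPM in sgEgfr libraries and 89.1, 135 and 199 CPM in sgRosa libraries, with a log2 fold change of 0.82 (SE 0.36, 95% interval -0.0079 to 1.65). Slc32a1, the vesicular GABA transporter, was low and on the other side, with 2.56, 4.24 and 1.56 CPM in sgEgfr libraries, against 8.44, 9.61 and 3.15 CPM in sgRosa libraries, and a log2 fold change of -1.24 (SE 0.56, 95% interval -2.54 to 0.055). The 5 tested of 9 inhibitory neuron markers, Slc32a1 among them, were all negative. Summed CPM of all 9 was 105 to 226 in sgEgfr and 127 to 304 in sgRosa libraries. The 9 excitatory neuron markers were all positive, with summed CPM of 1680.4 to 2678 in sgEgfr and 913 to 3037 in sgRosa libraries, and the part of either cell type in these values was not tested.

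A last list held ubiquitous SNAREs and their partners outside the families. Of 18 genes 3 were positive, with a median log2 fold change of -0.20, none passed at an adjusted or an unadjusted p, and 3 were lower in sgEgfr without overlap, where 7.6% of all genes tested were. Scfd2, a protein of the Sec1 family, had 10.02, 8.48 and 10.5 CPM in sgEgfr libraries and 11.0, 15.9 and 14.5 CPM in sgRosa libraries, with a log2 fold change of -0.51 (SE 0.27, 95% interval -1.14 to 0.12). Vps45, of endosomal fusion, had 20.3, 14.1 and 18.3 CPM in sgEgfr libraries and 19.7, 20.5 and 33.9 CPM in sgRosa libraries, with a log2 fold change of -0.50 (SE 0.30, 95% interval -1.19 to 0.18). Bet1, a Golgi SNARE, had 24.7, 34.8 and 18.3 CPM in sgEgfr libraries and 62.2, 27.98 and 24.9 CPM in sgRosa libraries, with a log2 fold change of -0.56 (SE 0.41, 95% interval -1.50 to 0.39). In Scfd2 no sgEgfr value reached the lowest sgRosa value, and in Vps45 and Bet1 the groups overlap.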

How the data were processed

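The data were read counts per gene of 3 sgEgfr and 3 sgRosa libraries, grouped by their titles. The authors deposited raw counts with no normalization, per library and as a table of the series whose 6 matching columns held identical values; another 3 columns fitted no label of a sample and stayed out of every step. Per the submitters' processing notes, STAR 2.7.5c, the mm10 build, fastp 0.23.2, edgeR 3.42.4, MultiQC 1.11, featureCounts 2.0.1 and FastQC 0.11.9 were used; options, annotation and strand setting are not given in the sources used here. The labels do not say whether each library is a separate animal, and p-values therefore stand for the spread among these samples only, which may be technical. All pairs of libraries differed by more than sampling noise.

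Genes passing filterByExpr (minimum count 10, minimum total 15) were scaled by TMM and tested by edgeR's robust quasi-likelihood test (edgeR 4.0.16, R 4.3.3), adjusted by Benjamini-Hochberg; every row of the tables named a gene. The SE was derived from the F statistic. CPM are TMM-scaled, and log2 CPM used a prior count of 2. The common biological coefficient of variation was 0.355. DESeq2 1.42.0, whose adjusted p was undefined for 12 members, limma-voom (limma 3.58.1), other scalings and filters, a replicate block, a pan-neuronal covariate and left-out libraries were alternatives. Positions, lengths and overlaps come from GENCODE on GRCm38, matched by symbol for 61 members. The scripts were tested on simulated data. Members, classes and lists were chosen with earlier results of these data known. Named members were the highest per length of each family, up to 5 per direction with the smallest p, the 8 highest by CPM of each of the neuronal and ubiquitous classes, and the paired relatives; 2 members that this rule names are not reported here, nor drawn, though class counts and medians include them, and up to 3 genes per outside list were taken by smallest p. The other members given with values (among them Stx11, Syt3, Syt6, Syt17, Sv2b, Cplx1 and Cplx3) were chosen after their values were seen.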

Additional observations from a re-analysis of the deposited data

How the results depend on the processing

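No member passed at an adjusted p under 0.05 under any of the 15 alternatives, and the number at an unadjusted p under 0.05, 1 as reported, was 22 by limma-voom with quality weights (15% of all genes there), 4 with the pan-neuronal covariate (11.1%), 18 without sgEgfr library 1 and sgRosa library 3 (11.9%) and 1 to 24 when each library was left out in turn (20.4% of all genes without sgRosa library 3, the highest). Samples with the same replicate number deviated together in numbers 2 and 3 (correlations 0.48 and 0.28) and not in number 1 (-0.031), and not every sample correlated best with its own number, so the numbers were not taken to pair the libraries; with a replicate block 7 members were at an unadjusted p under 0.05 (10% of all genes) and the neuronal median was 0.46. The neuronal median of 0.36 was 0.75 by limma-voom, -0.077 with the covariate, 0.94 without both libraries and 0.15 to 0.88 when each was left out. The ubiquitous median of -0.23 was -0.11 by limma-voom and -0.30 to -0.043 when each was left out. The difference of 0.59 between the class medians was 0.86 by limma-voom, 0.042 with the covariate, 1.25 without both libraries and 0.19 to 1.18 when each was left out. Among the 27 named members given here the sign was turned in 21 of 405 recomputed values. With the covariate the log2 fold change was 0.027 for Snap23, 0.26 for Vamp3, -0.33 for Snap47, -0.044 for Stx6, -0.19 for Syn1, -0.17 for Syt1 and -0.033 for Vamp4. Without both libraries it was -0.038 for Stx4a and 0.14 for Sv2a, and by limma-voom 0.047 for Stx7. When each library was left out it ranged from -0.55 to 0.0053 for Snap23, -0.043 to 0.91 for Snap47, -0.033 to 0.080 for Stx6, -0.14 to 0.047 for Stx7, -0.22 to 0.061 for Sv2a and -0.999 to 0.14 for Vamp3; the cause was not tested. Depth limits the members near the floor of 0.270 to 1.25 CPM, Syt2, Syt15 and Cplx3 among them.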
